A study of Mus musculus with 7 samples.

Results

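The 9 genes described here encode the chains of complement C1q (C1qa, C1qb and C1qc), the central complement protein C3, the receptors of its fragment C3a and of the fragment C5a (C3ar1, C5ar1 and C5ar2), and both chains of complement receptor 3 (Itgam and Itgb2). They were chosen by gene symbol, and all 9 were found among the 23420 genes of a count table made from cortical microglia, the resident macrophages of the brain. The cKO mice (n = 4) had the genotype MG-Srgap2f/f (Tmem119creErt2+ Srgap2f/f). In these mice the floxed alleles of Srgap2, a gene for a membrane-bending and actin-regulating protein, are deleted by a tamoxifen-inducible Cre recombinase driven by Tmem119, which within the brain is active mainly in microglia. The WT mice (n = 3) were littermates with the genotype Srgap2f/f, that is, with the same floxed alleles and no recombinase. All 7 mice were given tamoxifen (75 ug per g body weight, 2 doses, at postnatal days 8 and 10) and were sampled at postnatal day 30. Each library came from 1 numbered mouse and is called here by its replicate number. The recombinase was carried by the cKO mice alone, so its own effect and that of the deletion cannot be told apart. Cells were sorted as CD11b+, CD45low and CX3CR1+. CD11b is the protein made from Itgam, so the cells were chosen in part by the product of 1 of the 9 genes.

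In the classical complement pathway C1q binds a target, proteases attached to it cleave C4 and C2, and the enzyme they form cleaves C3. Fragments of C3 then stay on the target, where complement receptor 3 on phagocytes recognises them, while the small fragments C3a and C5a act through receptors of their own, most of which couple to G proteins. In the postnatal mouse brain, C1q and C3 are known to mark synapses, and microglia are known to engulf marked synapses through complement receptor 3. Microglia are the main source of C1q in the mouse brain.

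Total counts lay between 27025270 and 35213711 in cKO libraries and between 27016173 and 35707304 in WT libraries. Srgap2 was at 212 to 344 CPM in cKO and at 691 to 979 CPM in WT (CPM, counts relative to the TMM-scaled library size), and it fell (log2 fold change −1.53, SE 0.17, adjusted p = 0.00525). Of 10 microglial markers, all measured in every library, only Tmem119 passed the test, and it fell (log2 fold change −0.82, SE 0.15, adjusted p = 0.0459). The 10 markers of border-associated macrophages summed to between 75.6 and 141 CPM in cKO and between 78.6 and 122 CPM in WT. For the 15 of 16 listed markers of monocytes and neutrophils found in the table the sum was 8.92 to 10.8 CPM in cKO and 6.18 to 11.5 CPM in WT, and for the 8 of 10 listed markers of lymphocytes it was at most 0.406 CPM in cKO microglia and 0.286 CPM in WT microglia. Summed markers of the oligodendrocyte lineage were at 225.5 to 332 CPM in cKO and 227 to 257 CPM in WT, those of astrocytes at 89.1 to 142 CPM in cKO and 134 to 141 CPM in WT, and those of endothelial and mural cells at 57.8 to 76.7 CPM in cKO and 72.9 to 80.9 CPM in WT. Neuronal markers summed to 2.26 to 8.06 CPM in cKO and 2.95 to 3.87 CPM in WT. Of 5 listed erythroid markers 4 were found in the table, and 2 of these had no count in any library. Their sum was 20.6 CPM in cKO library 4, 1.42 to 3.86 CPM in the other cKO libraries and 0.475 to 6.56 CPM in WT. The libraries stood apart in ways that crossed the groups. Xist, which is transcribed from the inactive X chromosome, had 69.4 CPM in cKO library 2 and 144 CPM in cKO library 4, against 243 CPM in WT library 2 and 127 CPM in WT library 3, and did not exceed 0.658 CPM elsewhere. Ddx3y, a gene of the Y chromosome, showed the opposite pattern. It had 27.9 and 27.2 CPM in cKO libraries 1 and 3 and 30.4 CPM in WT library 1. Elsewhere it did not exceed 0.184 CPM, and the labels do not give the sex of the mice. In bulk samples, fewer cells of a type and less RNA per cell cannot be told apart.

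None of the 9 genes passed the test between cKO and WT microglia. All 9 were tested, and 0 of 9 had an adjusted p under 0.05, against 0.359% of the 11991 genes tested (edgeR's quasi-likelihood test). At an unadjusted p under 0.05 the count was again 0 of 9, against 16.5% of all genes tested, and 0 of 9 had groups that did not overlap, against 16.1% of all genes tested. DESeq2 and limma-voom also gave 0 of 9 at an adjusted p under 0.05. Over all genes, 538 of 10594 passed with DESeq2 and 47 of 11991 with limma-voom. The 9 log2 fold changes lay between −0.16 and 0.19. Their median was 0.07, beside −0.01 over all genes tested. The median of their sizes was 0.08, beside 0.18 over all genes tested, which were not matched to the 9 by level. A p that misses the threshold does not show that levels were equal, so the 95% interval of each fold change is given with it.

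**Figure D1:**
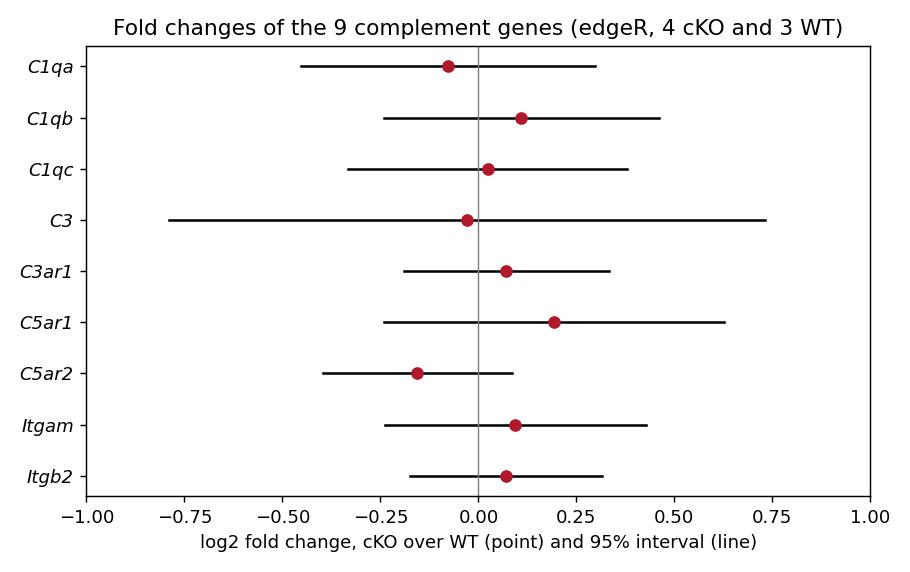
Log2 fold change of each of the 9 genes, cKO over WT (points), with its 95% interval (lines), from edgeR with 4 cKO and 3 WT libraries. Every interval holds 0, and that of C3, with the fewest counts, is the widest.

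The levels spanned more than 3 orders of magnitude, with the C1q chains at the top and C3 at the bottom. Set per kb of transcript (mean length of the protein-coding transcripts), the order was the same in cKO and WT: C1qa, C1qb, C1qc, Itgb2, Itgam, C3ar1, C5ar1, C5ar2 and C3. C1qa was at 6190 ± 1270 CPM per kb in cKO and 6531 ± 1132 CPM per kb in WT (SD, n = 4 and 3). At the other end C3 was at 1.66 ± 0.65 CPM per kb in cKO and 1.69 ± 0.77 CPM per kb in WT. Between these stood the integrin chains, with Itgb2 at 650 ± 71.2 CPM per kb in cKO and 619 ± 14.5 CPM per kb in WT, and the receptors of C3a and C5a, with C3ar1 at 54.8 ± 5.63 CPM per kb in cKO and 52.2 ± 5.83 CPM per kb in WT. Within each of the 7 libraries every gene was above the next in this order, but across libraries the ranges of C1qa and C1qb, of C1qb and C1qc, and of C3ar1 and C5ar1 overlapped. C1qb exceeded C1qc by a factor of 1.002 to 1.157 within a library. The order of Itgb2 and Itgam rested on the length used: with the longest transcript of each gene, Itgam was at 400 ± 41.7 CPM per kb in cKO and 374 ± 81.9 CPM per kb in WT, above Itgb2 at 289 ± 31.7 CPM per kb in cKO and 275 ± 6.46 CPM per kb in WT, and C5ar1 was above C5ar2 in 5 of 7 libraries.

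**Figure D2:**
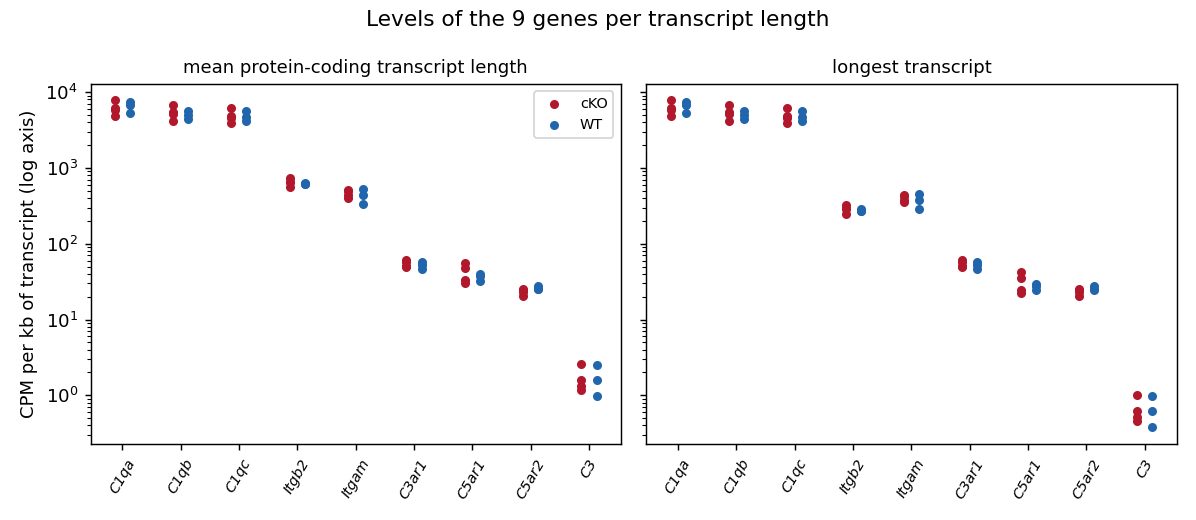
CPM per kb of transcript (log axis) of the 9 genes, 1 point per library, cKO left of WT for each gene, with the mean length of protein-coding transcripts (left) and the longest transcript (right). The C1q chains lie between 3948 and 7867 CPM per kb, and C3 is lowest with either length.

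The chains of C1q, which assemble in equal numbers into the molecule that opens the classical pathway, together made up 1.42%, 1.82%, 1.71% and 2.30% of scaled counts in cKO libraries 1 to 4 and 1.52%, 1.82% and 2.06% in WT libraries 1 to 3. Their genes lie next to each other on chromosome 4. The windows at the RefSeq starts of C1qb and C1qc (GRCm38.p6, 250 bases before to 50 after the start, minus strand) are shown because these are the starts of the most abundant transcripts of the set that the sequence table held. C1qb lies at chr4:136886151-136886450 and C1qc at chr4:136892865-136893164. Capitals mark GAGGAA, or TTCCTC where it is on the other strand, a form of the GGAA core that ETS factors such as PU.1, a regulator of myeloid genes, bind.
C1qb: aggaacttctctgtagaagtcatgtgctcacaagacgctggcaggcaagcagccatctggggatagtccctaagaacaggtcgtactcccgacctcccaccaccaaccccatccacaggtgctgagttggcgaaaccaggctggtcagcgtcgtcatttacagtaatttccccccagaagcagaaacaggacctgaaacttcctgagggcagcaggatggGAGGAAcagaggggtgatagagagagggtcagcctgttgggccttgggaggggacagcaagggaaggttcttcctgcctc
C1qc: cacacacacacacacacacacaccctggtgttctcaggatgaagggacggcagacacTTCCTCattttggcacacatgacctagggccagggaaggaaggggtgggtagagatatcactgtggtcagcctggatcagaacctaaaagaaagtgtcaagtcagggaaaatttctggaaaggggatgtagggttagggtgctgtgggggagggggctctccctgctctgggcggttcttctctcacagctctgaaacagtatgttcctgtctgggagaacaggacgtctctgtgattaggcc
C1qb held GAGGAA on the gene's own strand and C1qc on the other strand, 1 time each. The motif was picked after the sequences had been seen. The table held windows of 7 members (C1qb, C1qc, C3, C3ar1, C5ar1, C5ar2 and Itgam), with more than 1 for C5ar2, and 4 of the 8 windows held the motif on either strand, as did 28.3% of the 32851 windows of all genes. A match describes letters and is not a binding site.

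C1qa was at 5003, 6492, 6075 and 8182 CPM in cKO libraries 1 to 4, against 5483, 7127 and 7766 CPM in WT libraries 1 to 3. The cKO libraries held both the lowest and the highest value, so the groups overlapped fully. The mean was 6438 ± 1320 CPM in cKO microglia and 6792 ± 1180 CPM in WT microglia (SD, n = 4 and 3), a fold of 0.948 with a 95% interval from 0.73 to 1.23 (log2 fold change −0.08, SE 0.17, adjusted p = 0.869; two-sided exact permutation p = 0.69).

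C1qb was at 4491, 6009, 5526 and 7302 CPM in cKO libraries 1 to 4, against 4736, 5396 and 6086 CPM in WT libraries 1 to 3. Again cKO library 1 was lowest and cKO library 4 highest. Its fold was 1.08 with a 95% interval from 0.846 to 1.38 (log2 fold change 0.11, SE 0.16, adjusted p = 0.792; two-sided exact permutation p = 0.71). C1qc was at 4749, 5740, 5490 and 7497 CPM in cKO libraries 1 to 4, against 4935, 5667 and 6713 CPM in WT libraries 1 to 3. Its fold was 1.02 with a 95% interval from 0.795 to 1.30 (log2 fold change 0.02, SE 0.16, adjusted p = 0.963; two-sided exact permutation p = 0.97). The 1.38-fold of C1qb was the highest upper bound among the 3 chains.

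**Figure D3:**
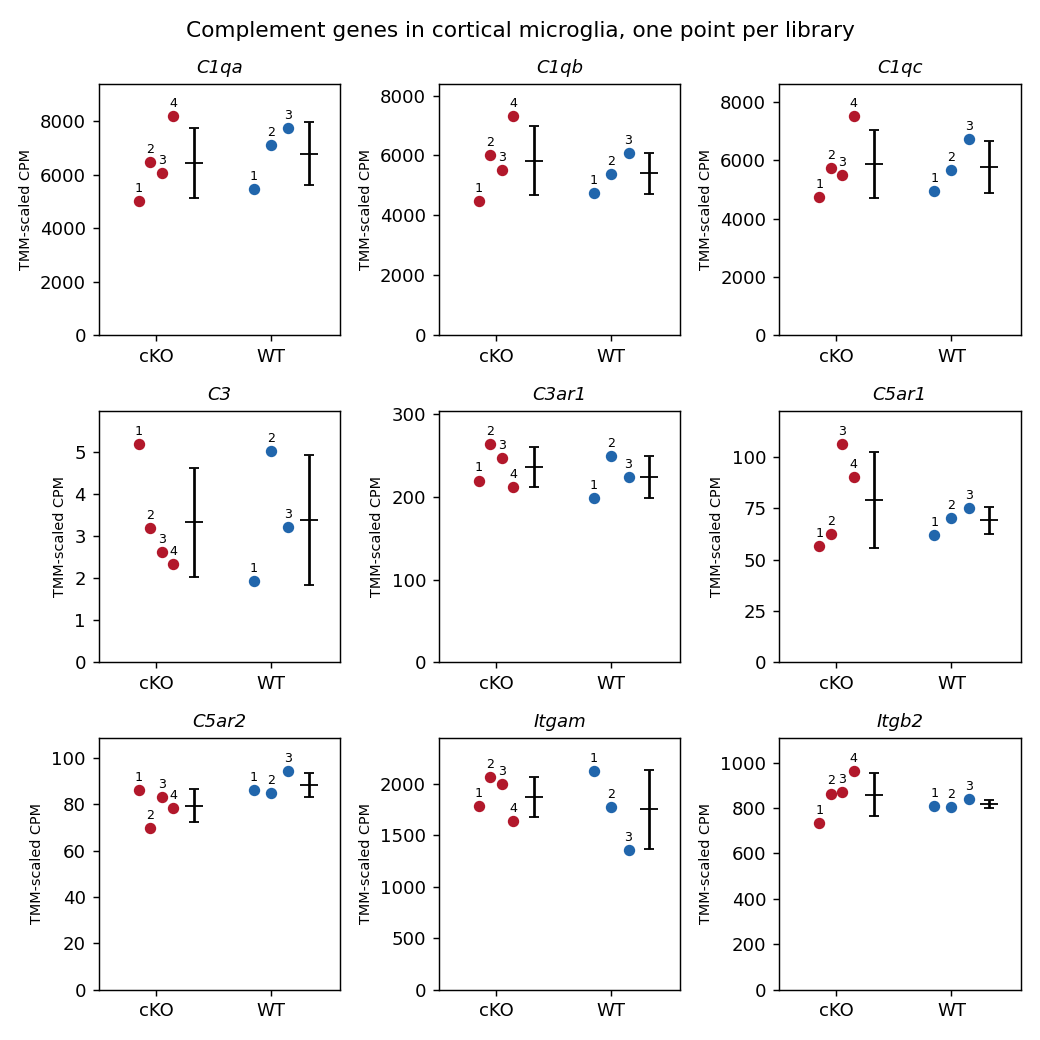
TMM-scaled CPM of the 9 genes in each library (points, labelled with the replicate number), cKO left of WT, with mean ± SD beside each group (n = 4 and 3); each axis starts at 0. In every panel the groups overlap, and C1qa, C1qb and C1qc run from cKO library 1 (lowest) to cKO library 4 (highest).

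The ratio of C1qb to C1qa within a library separated the groups. Per kb of transcript it was 0.858, 0.885, 0.870 and 0.853 in cKO libraries 1 to 4, against 0.826, 0.724 and 0.749 in WT libraries 1 to 3. The mean was 0.866 ± 0.014 in cKO and 0.766 ± 0.053 in WT (SD, n = 4 and 3), which is 13.1% higher in cKO, with every cKO library above every WT library. Each count behind the ratio was 129622 or more, so counting error is small beside the spread between mice. The ratio was 1 of 3 that were set out, no test was made of any of them, and the order within libraries says nothing about the amount of C1q protein. How many other pairs of genes have a ratio that separates the groups was not counted. Among single genes tested, 16.1% had groups that did not overlap, and C1qa and C1qb were not among them. The nearest values of the ratio were 0.853 in cKO library 4 and 0.826 in WT library 1. With per-library offsets for the GC content and length of transcripts, an alternative added after seeing the data, the ratio was 0.843 to 0.893 in cKO and 0.727 to 0.835 in WT. The ratio of C1qc to C1qa overlapped: it was 0.821, 0.764, 0.781 and 0.792 in cKO libraries 1 to 4 and 0.778, 0.687 and 0.747 in WT libraries 1 to 3, although with the same offsets the ranges, 0.776 to 0.812 in cKO and 0.688 to 0.772 in WT, did not.

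**Figure D4:**
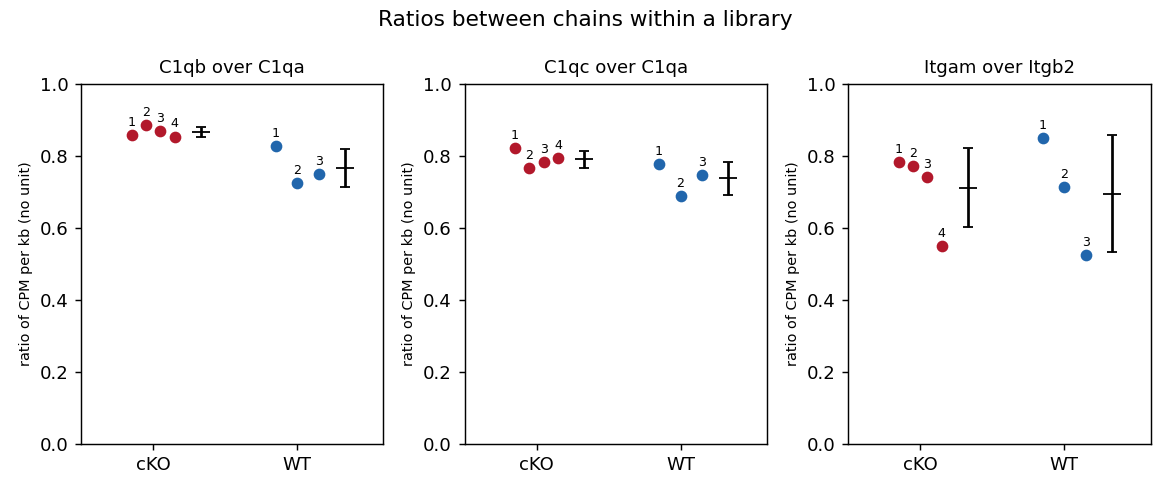
Ratio of CPM per kb between genes within each library (points, labelled with the replicate number), cKO left of WT, with mean ± SD (n = 4 and 3). For C1qb over C1qa all 4 cKO libraries, at 0.853 to 0.885, lie above the 3 WT libraries, at 0.724 to 0.826; the other ratios overlap.

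The C1q chains varied between libraries within a group, and their extremes fell in the libraries with the extremes of a trend with GC content. The mean log2 CPM of the 3 chains was 12.21, 12.57, 12.47 and 12.90 in cKO libraries 1 to 4, and 12.30, 12.56 and 12.74 in WT libraries 1 to 3. A gene's deviation from its mean level was set against its GC content within each library; over genes, which are no independent replicates, the rank correlation was −0.51, 0.16, −0.40 and 0.43 in cKO libraries 1 to 4 and −0.01, 0.06 and 0.23 in WT libraries 1 to 3. Both measures were lowest in cKO library 1 and highest in cKO library 4, but their orders were not the same in between: cKO library 3, with a trend of −0.40, had more C1q than WT library 1, with −0.01. The transcripts of C1qa, C1qb and C1qc have GC contents of 59.5%, 57.4% and 57.5%. With the GC and length offsets, the SD of log2 CPM over the 7 libraries was 0.119 for C1qa, against 0.26 without them. It was 0.0837 against 0.236 for C1qb, and 0.102 against 0.233 for C1qc. The reverse held for C3ar1, whose transcript has a GC content of 43.0%: its SD was 0.257 with the offsets and 0.145 without.

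**Figure D5:**
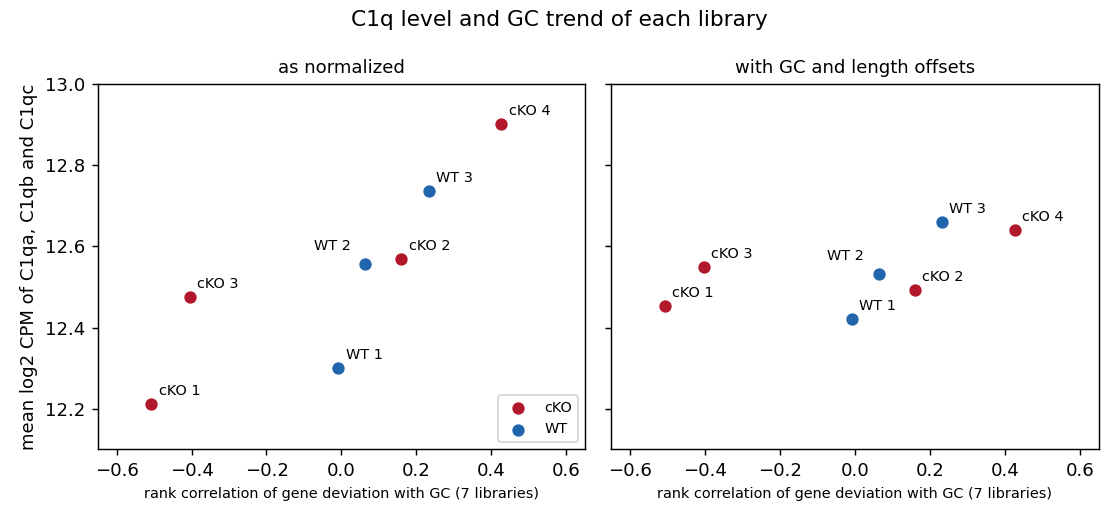
Mean log2 CPM of C1qa, C1qb and C1qc against the rank correlation, across genes, of deviation with GC content in each of the 7 libraries, as normalized (left) and with offsets for GC content and length (right). On the left the mean runs from 12.21 in cKO library 1 to 12.90 in cKO library 4, and on the right from 12.42 to 12.66.

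The libraries with Xist were also those with a GC trend above 0, so these cannot be told apart. C1qa was at 6492 to 8182 CPM in the 4 libraries with Xist and at 5003 to 6075 CPM in the other 3. For C1qc the ranges were 5667 to 7497 CPM and 4749 to 5490 CPM, while those of C1qb, 5396 to 7302 CPM and 4491 to 5526 CPM, overlapped. How many of all genes tested separate by Xist in this way was not counted. Among the libraries with Xist, the difference in mean log2 CPM (cKO minus WT, n = 2 and 2) was −0.03 for C1qa, 0.21 for C1qb and 0.09 for C1qc. In the libraries without it (n = 2 and 1) these were 0.01, 0.07 and 0.05. With log2 CPM of Xist as a covariate, 8.81% of all genes tested passed the threshold and 0 of the 9 complement genes did. C1qb then had a fold between 0.958 and 1.39 (95% interval; adjusted p = 0.343). With the GC and length offsets, 3.19% of all genes tested passed and again 0 of the 9. The intervals of the C1q chains were narrower under these offsets, from 0.806 to 1.08 for C1qa, from 0.924 to 1.20 for C1qb and from 0.875 to 1.16 for C1qc.

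The 5 genes whose profile over the 7 libraries was nearest to the mean profile of the C1q chains were BC004004, Plekho2, Gfer, Chmp6 and Pomgnt1. Nearness was the root mean square difference of centred log2 CPM, which was 0.029 for BC004004 and 0.044 for Pomgnt1. It was 0.030 to 0.057 for the chains themselves, whose own values are part of that mean. The 5 genes were picked by this nearness in the same 7 libraries. Their likeness to the chains, also in group means, therefore follows from the choice. BC004004 was at 94.6 ± 19.7 CPM in cKO microglia and 93.1 ± 12.9 CPM in WT microglia (SD, n = 4 and 3). GC contents of the 5 lay between 51.2% and 58.6%. Those of all genes tested were not set beside them, and the part of GC content in the nearness was not tested.

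C3, whose cleavage is the step on which all complement pathways meet, had by far the fewest counts of the 9 genes. It had 150, 94, 72 and 76 counts in cKO libraries 1 to 4, against 53, 158 and 115 counts in WT libraries 1 to 3. In CPM this was 5.19, 3.18, 2.62 and 2.33 in cKO, against 1.94, 5.02 and 3.21 in WT. The highest library of each group was more than 2 times its lowest, and the groups overlapped, with the highest value in cKO library 1 and the lowest in WT library 1. The fold was 0.98 with a 95% interval from 0.579 to 1.66 (adjusted p = 0.978; two-sided exact permutation p = 0.97), so a change by a factor of 1.5 in either direction lies inside it. The log2 fold change was −0.03. It was 0.36 without WT library 2, 0.11 without cKO library 4 and 0.07 without cKO library 3, and −0.34 without cKO library 1. The difference in mean log2 CPM (cKO minus WT) was −0.55 in the libraries with Xist (n = 2 and 2) and 0.91 in those without it (n = 2 and 1). The sum of the markers of border-associated macrophages was 141, 85.3, 124 and 75.6 CPM in cKO libraries 1 to 4 and 78.6, 122 and 97.7 CPM in WT libraries 1 to 3. In each group it was highest in the library with the most C3, and its part in the level of C3 was not tested.

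C3ar1, the receptor of C3a, was at 220, 265, 247 and 212 CPM in cKO libraries 1 to 4, against 199, 250 and 225 CPM in WT libraries 1 to 3. Its libraries lay close together, with 235.9 ± 24.3 CPM in cKO microglia and 224.5 ± 25.1 CPM in WT microglia (SD, n = 4 and 3). The fold was 1.05 with a 95% interval from 0.877 to 1.26 (adjusted p = 0.82; two-sided exact permutation p = 0.54). In the libraries with Xist the difference in mean log2 CPM (cKO minus WT) was 0.001, and in those without it 0.23.

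The receptors of C5a lie side by side on chromosome 7. C5ar1, which signals through G proteins, was at 56.8, 62.6, 106.5 and 90.2 CPM in cKO libraries 1 to 4, against 61.9, 70.2 and 75.2 CPM in WT libraries 1 to 3. The higher cKO libraries were libraries 3 and 4, and the other cKO libraries lay below WT libraries 2 and 3. The fold was 1.14 with a 95% interval from 0.847 to 1.54 (adjusted p = 0.68; two-sided exact permutation p = 0.60), and without cKO library 3 the log2 fold change was 0.02 in place of 0.19. By mouse number, the 4 libraries of mice 1101 to 1109 had 70.2 to 106.5 CPM of C5ar1 and the 3 of mice 1058 to 1062 had 56.8 to 62.6 CPM. The labels do not say whether these runs of numbers were separate litters or preparations. How many of all genes tested separate by run was not counted. In the run 1101 to 1109 the means were 98.4 CPM in cKO microglia and 72.7 CPM in WT microglia (n = 2 and 2), and in the run 1058 to 1062 they were 59.7 CPM in cKO microglia and 61.9 CPM in WT microglia (n = 2 and 1). The difference in mean log2 CPM (cKO minus WT) was 0.43 in the first of these runs and −0.05 in the second.

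C5ar2, the second receptor of C5a, which does not couple to G proteins, was at 86.1, 69.9, 83.1 and 78.3 CPM in cKO libraries 1 to 4, against 86.0, 84.8 and 94.4 CPM in WT libraries 1 to 3. Of the cKO libraries, 3 lay below every WT library, and cKO library 1 lay between the WT values. The mean was 79.4 ± 7.10 CPM in cKO microglia and 88.4 ± 5.25 CPM in WT microglia (SD, n = 4 and 3). The fold was 0.897 with a 95% interval from 0.759 to 1.06 (log2 fold change −0.16, SE 0.11, adjusted p = 0.523; two-sided exact permutation p = 0.20), the smallest p of the 9 genes, and the sign was the same under each of the 20 alternatives. The difference in mean log2 CPM (cKO minus WT) was −0.15 within each run of mouse numbers, 1101 to 1109 and 1058 to 1062, but −0.27 in the libraries with Xist and −0.02 in those without it.

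Itgam, the alpha chain of complement receptor 3, was at 1782, 2064, 1997 and 1640 CPM in cKO libraries 1 to 4, against 2124, 1775 and 1358 CPM in WT libraries 1 to 3. Both the highest and the lowest library were WT. The fold was 1.07 with a 95% interval from 0.848 to 1.34 (adjusted p = 0.814; two-sided exact permutation p = 0.63), and the log2 fold change was −0.06 without WT library 3 in place of 0.09. Within the run of mice 1101 to 1109 the difference in mean log2 CPM (cKO minus WT) was 0.22, and within the run 1058 to 1062 it was −0.15. Cells with little CD11b at their surface would not have entered the sort, in either group. In the GENCODE M21 annotation a further protein-coding model, Gm49368, overlaps Itgam on the same strand. The count table has no gene under that symbol. How reads shared by overlapping genes were counted is not stated in the sources used here. The window at the start of Itgam (GRCm38.p6, chr7:128062390-128062689, plus strand) is shown because this gene is both a member and the source of the sorted antigen, with capitals for the same motif on either strand, which it held 3 times.
Itgam: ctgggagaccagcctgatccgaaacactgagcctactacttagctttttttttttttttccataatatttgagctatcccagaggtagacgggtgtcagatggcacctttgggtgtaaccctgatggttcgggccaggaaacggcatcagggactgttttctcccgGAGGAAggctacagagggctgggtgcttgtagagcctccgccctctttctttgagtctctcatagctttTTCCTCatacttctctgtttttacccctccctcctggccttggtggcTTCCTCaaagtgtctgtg

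Itgb2, the beta chain that Itgam shares with other leukocyte integrins, was at 735, 864, 871 and 964 CPM in cKO libraries 1 to 4, against 809, 804 and 840 CPM in WT libraries 1 to 3. The WT libraries lay within a narrow band, and the cKO libraries reached beyond it on both sides. The fold was 1.05 with a 95% interval from 0.885 to 1.24 (adjusted p = 0.812; two-sided exact permutation p = 0.54). The difference in mean log2 CPM was 0.16 within the run of mice 1101 to 1109 and −0.02 within the run 1058 to 1062. The ratio of Itgam to Itgb2 per kb was 0.783, 0.772, 0.741 and 0.550 in cKO libraries 1 to 4, against 0.848, 0.713 and 0.523 in WT libraries 1 to 3. It was lowest in cKO library 4 and WT library 3, the libraries with the highest GC trend. With the GC and length offsets it was 0.648, 0.808, 0.720 and 0.665 in cKO libraries 1 to 4, against 0.731, 0.741 and 0.574 in WT libraries 1 to 3, and cKO library 1 was then the lowest of its group.

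The spread between mice of a group set how small a change could be seen. The within-group SD of log2 CPM was 0.115 for C5ar2, 0.127 for Itgb2 and 0.154 for C3ar1, all below the median of 0.211 over all genes tested. It was 0.237 for Itgam, 0.252 to 0.281 for the C1q chains, 0.344 for C5ar1 and 0.575 for C3. On the log scale the widths of the intervals given above run in much the same order.

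Other genes of the complement system were taken from 4 lists. None of their members passed the threshold, which 0.359% of all genes tested passed. Of 23 further components, 8 had enough counts to be tested and 0 rose or fell; their median log2 fold change was −0.17, beside −0.01 over all genes tested. C4b, which follows C1q in the classical pathway, was at 14.3 ± 6.20 CPM in cKO microglia and 15.2 ± 3.02 CPM in WT microglia (adjusted p = 0.917). Cfb, a protease of the alternative pathway, was at 3.70 ± 1.17 CPM in cKO microglia and 2.34 ± 0.70 CPM in WT microglia (adjusted p = 0.301), C1ra, a protease of the C1 complex, at 2.59 ± 0.51 CPM in cKO microglia and 3.37 ± 0.46 CPM in WT microglia (adjusted p = 0.425), and Cfp, which stabilises the alternative convertase, at 2.51 ± 0.21 CPM in cKO microglia and 2.66 ± 0.07 CPM in WT microglia (adjusted p = 0.879). Hc, the gene of C5, was among 8 components with no count in any library, where 3 counts correspond to 0.0837 to 0.11 CPM; it is named after its value was seen. Masp1, a protease of the lectin pathway, also named after its values were seen, was at 1.04 to 2.67 CPM in cKO and 2.82 to 3.11 CPM in WT, without overlap (log2 fold change −0.80, SE 0.30, adjusted p = 0.209). Of the 8 components tested, 1 had groups that did not overlap, beside 16.1% of all genes tested.

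Of 16 genes listed as regulators of complement, 6 were tested and 0 rose or fell. Cr1l, the rodent membrane regulator Crry, was at 81.7 ± 5.25 CPM in cKO microglia and 83.1 ± 2.03 CPM in WT microglia (adjusted p = 0.937). Clu, clusterin, which binds the terminal complex, averaged 3.99 ± 1.69 CPM in cKO microglia and 2.91 ± 0.92 CPM in WT microglia (adjusted p = 0.548), and Cntnap1, which was on the list but is known as an adhesion protein of axons and not as a regulator of complement, 1.51 ± 0.26 CPM in cKO microglia and 1.6 ± 0.17 CPM in WT microglia (adjusted p = 0.921).

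Of 11 other receptors and C1q-binding proteins, 8 were tested and 0 rose or fell. The groups did not overlap for 2 of these 8, beside 16.1% of all genes tested. Sirpa, the receptor of the signal CD47 that restrains engulfment, was at 3672 ± 154 CPM in cKO microglia and 3960 ± 59.9 CPM in WT microglia (log2 fold change −0.11, SE 0.10, adjusted p = 0.636), without overlap between the groups. Lrp1 was at 2494 ± 459 CPM in cKO microglia and 2685 ± 649 CPM in WT microglia (adjusted p = 0.821), and Calr, calreticulin, at 1378 ± 189 CPM in cKO microglia and 1406 ± 88.0 CPM in WT microglia (adjusted p = 0.939). Fcer1g, an adaptor of Fc receptors, was at 516 ± 66.4 CPM in cKO microglia and 422 ± 27.2 CPM in WT microglia (adjusted p = 0.257). C1qbp, named after its values were seen, was at 58.9 to 81.1 CPM in cKO and 46.3 to 57.3 CPM in WT, without overlap (log2 fold change 0.40, SE 0.13, adjusted p = 0.169).

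All 14 partners of the integrin chains, that is, other chains, ligands, adaptors and activators, were tested, and 0 rose or fell. Their fold changes were above 0 in 11 of 14, beside 48.1% of all genes tested, with a median of 0.14. Tln1, talin, which activates integrins from inside the cell, was at 1196 ± 121 CPM in cKO microglia and 987 ± 163 CPM in WT microglia (log2 fold change 0.28, SE 0.13, adjusted p = 0.324). Tyrobp, an adaptor that signals with complement receptor 3, was at 1022 ± 237 CPM in cKO microglia and 796 ± 108 CPM in WT microglia (log2 fold change 0.36, SE 0.18, adjusted p = 0.33). Fermt3, kindlin-3, was at 701 ± 109 CPM in cKO microglia and 669 ± 6 CPM in WT microglia (adjusted p = 0.845), and Apbb1ip, which links Rap1 to talin, at 470 ± 43.8 CPM in cKO microglia and 412 ± 8.94 CPM in WT microglia (adjusted p = 0.398). Rap1b and Skap2, named after their values were seen, had no overlap between groups: Rap1b was at 399 to 483 CPM in cKO and 327 to 395 CPM in WT (adjusted p = 0.244), and Skap2 at 134 to 153 CPM in cKO and 116 to 125 CPM in WT (adjusted p = 0.21). These were the 2 of 14 partners without overlap, beside 16.1% of all genes tested. Icam1, a ligand of leukocyte integrins, also named after its values were seen, was at 174 to 267 CPM in cKO and 245 to 296 CPM in WT, with overlap (log2 fold change −0.35, SE 0.14, adjusted p = 0.247).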

How the data were processed

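RNA from sorted cortical microglia of 4 cKO and 3 WT mice was measured by poly(A)-selected sequencing. The authors deposited whole-number counts per gene symbol, not normalized, and the submitters' processing notes name DRAGEN and GRCm39; which gene models, strand setting and rule for shared reads were used is not given in the sources used here. All genes were fitted together with edgeR 4.0.16 (R 4.3.3): filterByExpr (least count 10, least total 15), TMM factors and the quasi-likelihood F test with the robust option, with p-values adjusted over 11991 genes by the Benjamini-Hochberg method at 0.05. Standard errors are the log2 fold change over the square root of F, and 95% intervals use the total degrees of freedom. Exact permutation tests used the 35 divisions of 7 libraries into 4 and 3, which allow no two-sided p under 0.029. Log2 CPM had a prior count of 2. Transcript lengths and GC contents came from GENCODE M21 (values for 99.3% of genes tested), start windows from RefSeq (GRCm38.p6). The fit was tested on simulated data.

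Members, lists and the rule for named genes (all 9 members; in a list, genes past the threshold or else up to 4 with the highest level) were chosen with earlier results of these data known. A gene that this rule takes is not reported here. Each library is 1 numbered mouse, so p-values measure the spread between mice. Alternatives were other factors, DESeq2 1.42.0, limma 3.58.1 voom, other filters, each library left out, blocks, an Xist covariate, and offsets for GC content and length (loess, span 0.3). The labels do not say that replicate numbers pair the samples. Same-numbered deviations correlated at 0.387, 0.069 and −0.173, which cannot settle whether they do.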

Additional observations from a re-analysis of the deposited data

How the results depend on the processing

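None of the 9 genes passed the threshold under any of 20 alternatives (180 values, lowest adjusted p 0.228), and 160 of the values kept their sign; those of C5ar1, C5ar2 and Itgb2 did so throughout. Signs changed for genes with log2 fold changes between −0.0773 (C1qa) and 0.1094 (C1qb) in the fit reported. The largest value of changed sign was 0.3553, for C3 without WT library 2. With upper-quartile factors C1qc was at −0.0023, and with sample quality weights at −0.0798. The replicate block, which leaves out cKO library 4, gave −0.0216 for C1qb, −0.1102 for C1qc and 0.1259 for C3, and with the GC and length offsets added −0.0326 for C1qc and 0.1375 for C3. The Xist covariate gave 0.047 for C1qa and 0.0346 for C3. Leaving out each library in turn gave from −0.2174 to 0.0303 for C1qa, from −0.0205 to 0.2034 for C1qb, from −0.1189 to 0.1473 for C1qc, from −0.3392 to 0.3553 for C3, from −0.0072 to 0.1447 for C3ar1 and from −0.0592 to 0.2558 for Itgam. The number of all genes past the threshold, 43 in the fit reported, moved far more. It was 538 with DESeq2, 904 with sample quality weights, 89 with no filter, 318 with the replicate block, 661 with that block and the offsets, 170 with a block for the 2 runs of mouse numbers, 1056 with the Xist covariate, 382 with the offsets, and from 4 to 142 when a library was left out (4 without WT library 2, 6 without WT library 3 or cKO library 2 or 3, 10 without WT library 1, 44 without cKO library 4 and 142 without cKO library 1). The cause was not tested. Of the members ordered by level, 2 changed rank with the longest transcript. C3 had the fewest counts, 53 to 158 per library; intervals cover the spread between libraries as well as counting error.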
